A study of Mus musculus with 30 samples.

Results

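The alpha and beta tubulin genes were followed in the mouse lung through inhaled lipopolysaccharide (LPS) and mechanical ventilation (MV) at 2 ages. The 10 genes were those whose platform gene symbol was Tuba1a, Tuba1b, Tuba1c, Tuba4a, Tubb2a, Tubb2b, Tubb3, Tubb4b, Tubb5 or Tubb6. Of these, 8 had a probe set that carries their symbol alone, and 7 of the 8 were bright enough to be tested, among 13089 genes tested in all. Tubb3 was too dim, and the probe sets of Tuba1b and Tuba1c also carry the symbol of another gene, so those are described by probe set.

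Total RNA of whole lungs from 30 C57BL/6 mice was measured, with an Affymetrix mouse expression array for each individual animal. The juvenile groups were aged 21 days and the adult groups 16 weeks. Control mice of each age were untreated and breathed on their own. MV mice were ventilated for 2 h with a tidal volume of 15 mL/kg, an end-expiratory pressure of 2 cmH2O and 30% oxygen. LPS mice spent 30 min in a closed chamber into which LPS of E. coli 0111:B4 (20 mL at 0.1 mg/mL) was aerosolised, after which they breathed on their own for 2 h. LPS+MV mice received the same aerosol and were then ventilated for 2 h. Each group held 4 mice, except juvenile MV and juvenile LPS+MV, which held 3 each. The labels name no transgene or deletion, and they give neither the sex of the mice nor an anaesthetic, so ventilated mice differ from controls in all that ventilation entails.

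Alpha and beta tubulin form the dimer from which microtubules grow, and each comes in several isotypes encoded by separate genes. Microtubules carry cargo, set cell shape, build the mitotic spindle and form the core of motile cilia, which in the lung belong to the ciliated cells of the airways. Cells also tune tubulin mRNA to the pool of free dimer: the factor TTC5 binds the first residues of tubulin as they leave the ribosome and brings about decay of the mRNA being translated.

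Values are the authors' probe set intensities, on a linear scale, and differences are log2 changes of intensity + 32 with their standard error (SE). Folds are of intensity + 32 too, so they understate the ratio of the intensities, most for dim genes. A gene passed a comparison when its Benjamini-Hochberg adjusted p from limma, over the 13089 genes, was below 0.05. The adjusted p-values given for genes are of this kind. Array medians ran from 21.6 to 22.8 and upper quartiles from 89.1 to 111. Adult MV replicate 3 had the lowest upper quartile, and among the 4 adult MV arrays it was also the lowest for Tubb4b, Tubb2a, Tuba1a, Tubb5 and Tubb2b. The 4 arrays that lay farthest from the other arrays of their group over all genes, with a root mean square log2 deviation of 0.252 to 0.279, were juvenile LPS+MV replicate 3, adult LPS+MV replicate 2, juvenile control replicate 4 and juvenile MV replicate 3. Adult MV replicate 3 came next, at 0.243. Each array was set against the mean of the others of its group, which are fewer in the groups of 3, so deviations run somewhat higher there. Xist was high on 4 of 4 adult MV arrays, 3 of 4 adult LPS+MV, 2 of 3 juvenile LPS+MV, 1 of 3 juvenile MV and 1 of 4 juvenile control arrays, and on 0 of the arrays of the other groups. In whole-lung RNA, fewer cells of a type and less RNA per cell cannot be told apart.

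With ventilation, 4 of the 7 tested tubulin genes fell at each age, and the gene with the lowest adjusted p among the 7 was Tubb4b. In juvenile MV lungs, 4 of the 7 genes fell (Tubb4b, Tubb6, Tubb2a and Tuba1a) and 0 rose, where 6.45% of all genes tested fell and 4.41% rose. In adult MV lungs, 4 of the 7 fell (Tubb4b, Tubb2a, Tuba4a and Tuba1a) and 0 rose, against 24.3% of all genes that fell and 7.17% that rose. The median log2 change of the 7 genes was -0.60 in juvenile and -0.32 in adult MV lungs, beside -0.02 and -0.06 for all genes tested. The adult falls of Tubb4b, Tubb2a and Tuba4a passed without adult MV replicate 3 (-0.74, -0.65 and -0.36) and with quantile normalization (-0.79, -0.70 and -0.33), and that of Tuba1a passed in neither. With only the groups compared in the model, the juvenile falls of Tubb6, Tubb2a and Tuba1a did not pass (adjusted p = 0.085, 0.0536 and 0.0529), and that of Tubb4b did. With LPS the picture was divided by gene: Tubb6 rose at both ages, Tubb4b did not pass at either, and Tubb2a and Tubb2b fell in juvenile lungs.

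**Figure D1:**
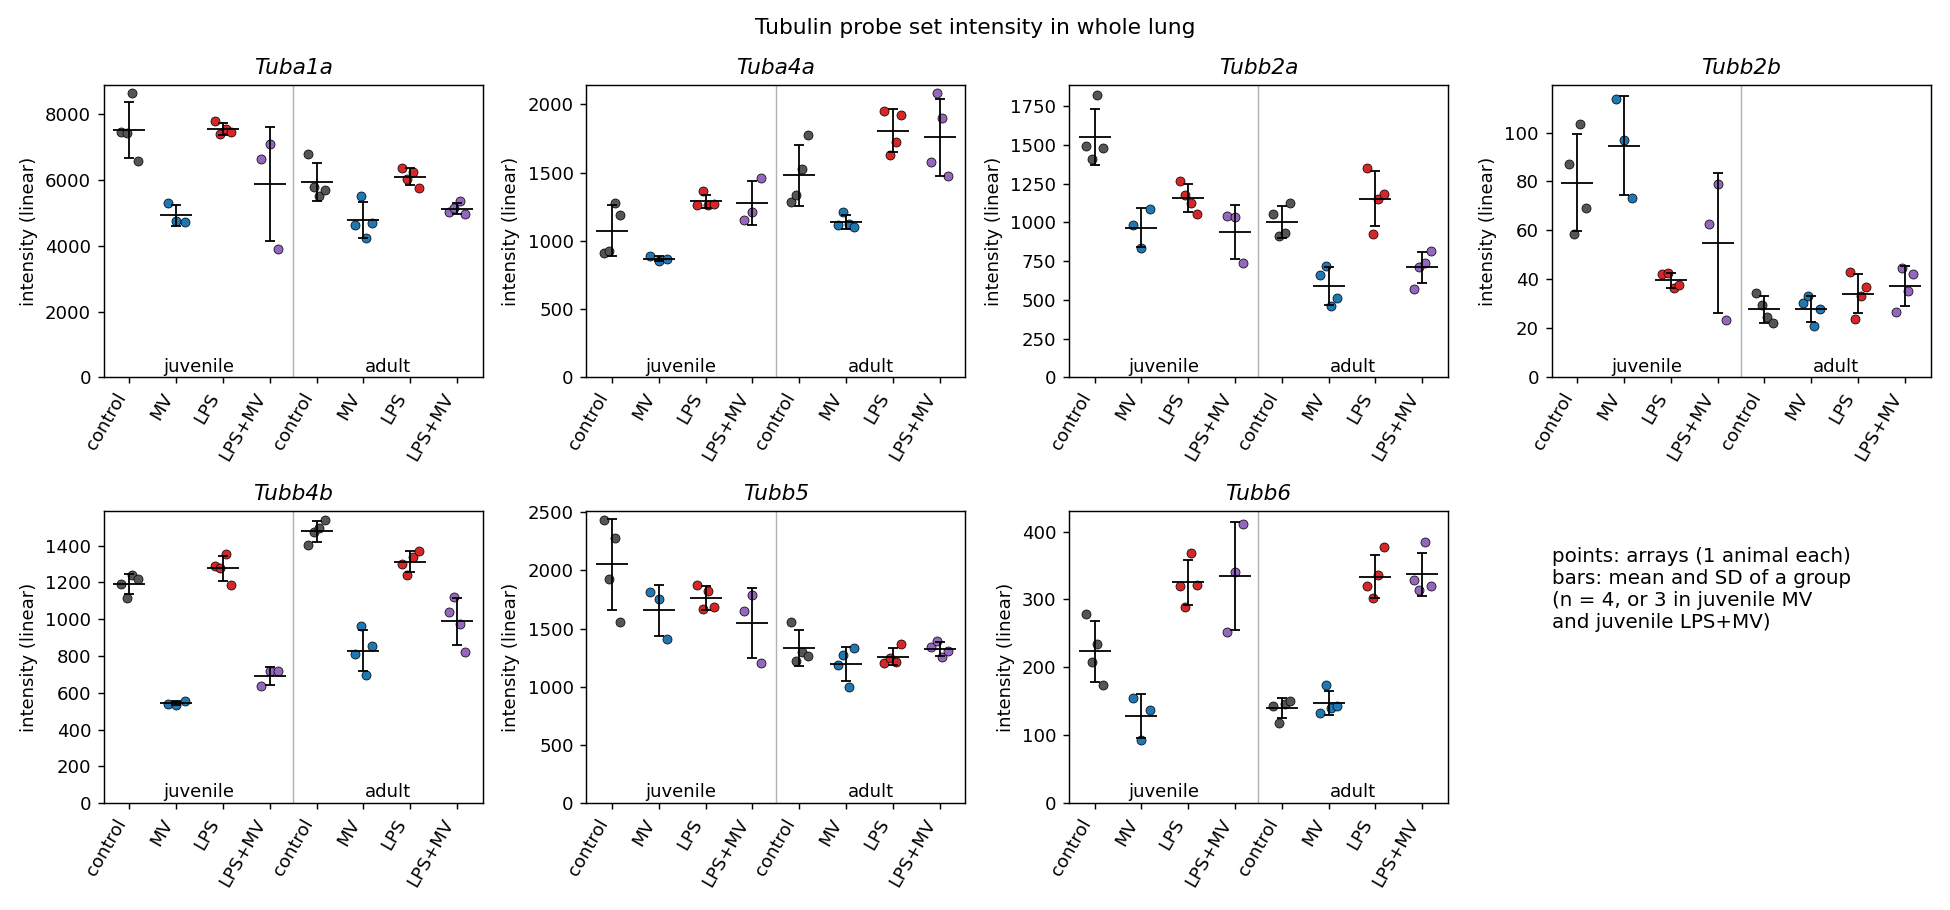
Intensity (linear scale, from 0) of the 7 tested tubulin genes on each of the 30 arrays, by group, with the mean and SD of each group as bars. Tubb4b was low in each ventilated group at both ages, and Tubb6 was high in each group that received LPS.

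Tubb4b encodes a widely made beta isotype that is also a component of the axoneme of cilia. Its juvenile control arrays read 1190.2, 1117, 1239.6 and 1216. The juvenile MV arrays read 539, 535 and 557. The 3 MV values lay close together, and each was below the lowest control value. The log2 change was -1.09 ± 0.09 (adjusted p = 1.38e-08), a fold of 0.471, and it was the 7th lowest of the 13089 genes. In adults the control arrays read 1404, 1473, 1494 and 1539. The adult MV arrays read 809, 962, 695 and 852. Again the highest MV array, replicate 2, lay well below the lowest control array. The adult change was -0.82 ± 0.08 (adjusted p = 1.18e-07), a fold of 0.567. The adult change was higher than the juvenile one by 0.27 ± 0.12 on the log2 scale, a difference that did not pass (adjusted p = 0.176, 95% interval 0.03 to 0.51).

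LPS alone left no passing change in Tubb4b. The juvenile LPS arrays read 1287, 1278, 1354 and 1186, and the adult LPS arrays read 1300.4, 1242, 1339 and 1371. The juvenile values overlapped the control values, whereas each of the 4 adult LPS values lay below the lowest adult control value. The changes were 0.10 ± 0.08 (adjusted p = 0.429) in juveniles, with a 95% interval of -0.07 to 0.26, and -0.17 ± 0.08 (adjusted p = 0.109) in adults, with an interval of -0.33 to -0.00. The adult change passed with quantile normalization, at -0.22 (adjusted p = 0.0234), and with the compared groups fitted alone (adjusted p = 0.0471).

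When ventilation followed LPS, Tubb4b was low again. The juvenile LPS+MV arrays read 636, 720.1 and 719.9. The adult LPS+MV arrays read 1041, 1119.9, 974 and 821. At each age all values of these arrays lay below all values of the LPS arrays of that age. Against LPS alone the changes were -0.85 ± 0.09 (adjusted p = 3.16e-07) in juveniles and -0.41 ± 0.08 (adjusted p = 0.00267) in adults. Against control they were -0.76 ± 0.09 (adjusted p = 1.50e-07) and -0.57 ± 0.08 (adjusted p = 2.25e-06). The fall with ventilation was smaller after LPS than without it in adults, by 0.41 ± 0.11 (adjusted p = 0.0299). In juveniles that difference was 0.23 ± 0.12 (adjusted p = 0.461). The adult difference ended when single arrays were left out, at 0.33 (adjusted p = 0.0752) without adult MV replicate 3 for one, and 7.16% of all genes passed this interaction in adults, against 0.749% in juveniles.

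Between LPS+MV and MV lungs, Tubb4b differed narrowly. The juvenile change was 0.33 ± 0.09 (adjusted p = 0.0154), with no overlap between the groups, and the adult change was 0.25 ± 0.08 (adjusted p = 0.0333), with overlap. The adult call was lost under 10 of 20 alternatives, down to 0.04 (adjusted p = 0.618) with the mean over probe sets, and at 0.17 (0.0988) with quantile normalization. It was also lost without MV replicate 1 or 3, or without LPS+MV replicate 1, 2 or 3. The juvenile call was lost under 7 of 18, down to 0.14 (adjusted p = 0.0638) with the mean over probe sets, and without MV replicate 1 or 2 or LPS+MV replicate 2 or 3. Among the 7 genes, 3 rose in juvenile LPS+MV against MV (Tubb6, Tuba4a and Tubb4b) and 1 fell (Tubb2b), where 6.93% of all genes rose and 7.78% fell. The same 3 genes passed as higher in adult LPS+MV against MV, Tubb4b with the losses just given, and 0 fell, where 12.0% of all genes rose and 5.34% fell. These comparisons share the MV arrays with those against control, so they are not independent of them.

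The tested genes that fell with ventilation at both ages, Tubb4b, Tubb2a and Tuba1a, have a promoter window in the RefSeq table for GRCm38.p6. The 250 bases before the annotated start are shown to compare their proximal promoters. Each is written 5′ to 3′ on the strand of the gene, and capitals mark CCAAT or TATAA read on either strand. The windows are chr2:25224703-25224952 for Tubb4b, chr13:34078009-34078258 for Tubb2a and chr15:98953502-98953751 for Tuba1a, with the genes on the minus strand.
Tubb4b: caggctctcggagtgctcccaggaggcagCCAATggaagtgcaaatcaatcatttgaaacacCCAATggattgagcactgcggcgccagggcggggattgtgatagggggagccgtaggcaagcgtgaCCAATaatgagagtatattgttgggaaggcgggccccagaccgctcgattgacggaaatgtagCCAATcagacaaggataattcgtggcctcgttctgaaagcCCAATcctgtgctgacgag
Tubb2a: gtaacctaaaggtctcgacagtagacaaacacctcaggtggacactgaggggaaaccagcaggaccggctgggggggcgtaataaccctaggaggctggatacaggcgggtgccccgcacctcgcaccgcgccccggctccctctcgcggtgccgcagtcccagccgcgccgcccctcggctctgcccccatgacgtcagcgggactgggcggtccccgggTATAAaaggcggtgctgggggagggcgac
Tuba1a: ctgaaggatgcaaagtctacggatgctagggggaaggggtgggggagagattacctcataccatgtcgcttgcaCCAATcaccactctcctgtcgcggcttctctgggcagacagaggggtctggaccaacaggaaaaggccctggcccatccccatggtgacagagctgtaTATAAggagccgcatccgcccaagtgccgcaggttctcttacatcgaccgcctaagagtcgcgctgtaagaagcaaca
The Tubb4b window held 5 copies of CCAAT, the letters of the box bound by the factor NF-Y, and 0 of TATAA, the letters of the box near the start of some genes. Of 32851 windows of this length, 33.8% held at least 1 CCAAT on either strand and 0.213% held at least 5. The Tubb2a window held 0 CCAAT and 1 TATAA, and the Tuba1a window held 1 of each. At least 1 TATAA was found in 22.8% of all windows. The tested genes that fell at both ages thus had windows with 0 to 5 CCAAT. Among the other tubulin genes with a window, Tubb5 had 2, Tuba1c and Tubb3 had 1 each, and Tuba4a and Tuba1b had 0. These others are not a set without change, since Tuba4a fell in adult MV lungs and the probe set of Tuba1b fell at both ages. Tubb6, which fell in juvenile MV lungs, is not among the windows read here. Tubulin genes on 1 chromosome were left out of this reading, while the 32851 windows include that chromosome. The motifs were chosen after these sequences had been seen, they do not overlap each other in their letters, and a match describes the sequence only.

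Tubb2a encodes a beta isotype found in many tissues and abundant in brain. Its juvenile control arrays read 1493, 1408, 1819 and 1483, and the juvenile MV arrays read 982, 833 and 1086. The 3 MV values lay below the 4 control values. The change was -0.67 ± 0.15 (adjusted p = 0.0048). In adults the control arrays read 1055, 909.8, 930.1 and 1126, and the MV arrays read 659, 719, 459.6 and 515. These groups did not overlap either, and the change was -0.76 ± 0.14 (adjusted p = 0.000156). The change did not differ between the ages beyond its error, at -0.09 ± 0.20 (adjusted p = 0.822), with a 95% interval of -0.50 to 0.32.

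With LPS, Tubb2a fell in juvenile lungs and did not pass in adult lungs. The juvenile LPS arrays read 1269.8, 1179.7, 1128 and 1057, all below the control arrays, and the change was -0.41 ± 0.14 (adjusted p = 0.0287). The adult LPS arrays read 1352, 924, 1154 and 1184 and overlapped the controls, with a change of 0.19 ± 0.14 (adjusted p = 0.3). The difference between the ages was 0.59 ± 0.19 (adjusted p = 0.0822), which did not pass. The juvenile call ended without juvenile control replicate 3, at -0.33 (adjusted p = 0.104), and without juvenile LPS replicate 3 or replicate 4, at -0.40 (0.0642) and -0.37 (0.0872).

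Ventilation after LPS lowered Tubb2a in adults against LPS. The adult LPS+MV arrays read 573, 712, 736 and 816, and the change against LPS was -0.68 ± 0.14 (adjusted p = 0.00275), with no overlap. The juvenile LPS+MV arrays read 1040.3, 1033 and 737. These too lay below the LPS arrays of their age, yet the change of -0.31 ± 0.15 (adjusted p = 0.157) did not pass. Against control, LPS+MV changed Tubb2a by -0.72 ± 0.15 (adjusted p = 0.000415) in juveniles and -0.49 ± 0.14 (adjusted p = 0.00446) in adults. The probe set of Tubb2a, 1427347_s_at, is of a class that may bind related transcripts. A second one, 1427838_at, was dim, at 18.4 to 35.6 on the 30 arrays. It changed by -0.17 ± 0.06 in juvenile and -0.07 ± 0.06 in adult MV lungs and passed in neither.

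Tuba1a encodes an alpha isotype that is prominent in developing neurons and is made in many other cells. Its probe set, 1418884_x_at, is of a class that may bind related transcripts, so its values may not be of Tuba1a alone. Another, 1433584_at, also carries the symbol Gm6682. It was dim, at 12.4 to 19.0 on the 30 arrays, and was not kept. The Tuba1a juvenile and adult values below are from 1418884_x_at. The juvenile control arrays read 7449, 7429, 8648 and 6582, and the juvenile MV arrays read 5287, 4766 and 4719. The MV values lay below the control values without overlap, with a change of -0.60 ± 0.13 (adjusted p = 0.00348). The adult control arrays read 6794, 5786, 5516 and 5679, and the adult MV arrays read 4624, 5525, 4231 and 4703. Adult MV replicate 2 reached into the control range, and the change of -0.32 ± 0.12 (adjusted p = 0.0402) passed narrowly. It was lost under 9 of the 20 other settings, at -0.25 (adjusted p = 0.134) without adult control replicate 1 and at -0.26 (0.136) without adult MV replicate 3.

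Tuba1a did not pass with LPS. The juvenile LPS arrays read 7786, 7393, 7556 and 7464, and the adult LPS arrays read 6362, 6027, 6248 and 5764. These values overlapped those of the controls of their age, with changes of 0.01 ± 0.12 (adjusted p = 0.963) and 0.04 ± 0.12 (adjusted p = 0.818). In juvenile LPS+MV lungs the arrays read 6636, 7102 and 3899, with replicate 3 far below the other two. The change against control was -0.40 ± 0.13 (adjusted p = 0.018), but -0.13 (adjusted p = 0.351) without replicate 3. Against LPS it was -0.41 ± 0.13 (adjusted p = 0.0291), but -0.14 (adjusted p = 0.396) without that array. In adult LPS+MV lungs the arrays read 5016, 5152, 5364 and 4975, all below the adult LPS and control arrays. The change of -0.21 ± 0.12 (adjusted p = 0.16) against control and that of -0.25 ± 0.12 (adjusted p = 0.201) against LPS did not pass.

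Tuba4a encodes an alpha isotype whose gene, unlike most, does not encode the terminal tyrosine. In adult lungs it fell with ventilation and rose with LPS. Its juvenile control arrays read 909.8, 926, 1274 and 1189.7, the MV arrays 887, 855 and 868, and the LPS arrays 1265, 1363, 1259 and 1269. The 3 MV values lay just below the lowest control value, and the LPS values overlapped the upper control values. The changes of -0.28 ± 0.12 (adjusted p = 0.129) with MV and 0.27 ± 0.11 (adjusted p = 0.0775) with LPS did not pass. The adult control arrays read 1283, 1336, 1525 and 1776, the MV arrays 1116, 1208, 1124 and 1101, and the LPS arrays 1949.8, 1631, 1724 and 1923. In adults the MV arrays were below all control arrays, and the change of -0.36 ± 0.11 (adjusted p = 0.0137) and the rise of 0.29 ± 0.11 (adjusted p = 0.0401) passed. The fall was lost without adult control replicate 4, at -0.27 (adjusted p = 0.074), and the rise was lost without any of 6 single arrays, down to 0.23 (adjusted p = 0.141) without adult control replicate 1.

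Between LPS+MV and MV lungs Tuba4a differed at both ages. The juvenile LPS+MV arrays read 1153, 1213 and 1459, and the adult LPS+MV arrays read 1575, 2080.2, 1896 and 1477. At each age these lay above all MV arrays. The changes were 0.53 ± 0.13 (adjusted p = 0.00433) in juveniles and 0.60 ± 0.11 (adjusted p = 0.000169) in adults. Against LPS the changes were -0.02 ± 0.12 (adjusted p = 0.94) and -0.05 ± 0.11 (adjusted p = 0.837), neither of which passed. A second Tuba4a probe set, 1417374_at, changed by -0.38 and -0.32 (log2) in juvenile and adult MV lungs and by 0.35 and 0.25 with LPS, and these 4 changes passed. The dimmest, 1417375_at, with 65.2 to 118 units, passed in none of the 4.

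Tubb6 encodes a beta isotype that diverges from the others in sequence and is known for its rise in regenerating muscle. It rose with LPS at both ages. The juvenile control arrays read 279, 208, 235 and 173, and the juvenile LPS arrays read 320.0, 289, 369 and 322. All LPS values exceeded all control values, with a change of 0.49 ± 0.13 (adjusted p = 0.00631). The adult control arrays read 144, 118, 147 and 151, and the adult LPS arrays read 319.7, 302, 336 and 377. Here the lowest LPS array read 301.7 and the highest control array 150.7, and the change was 1.09 ± 0.13 (adjusted p = 2.44e-07), a fold of 2.13. The rise was larger in adults by 0.60 ± 0.18 (adjusted p = 0.0694), which did not pass.

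With ventilation alone Tubb6 fell in juvenile lungs. The juvenile MV arrays read 155, 93.2 and 137, all below the control arrays, with a change of -0.68 ± 0.14 (adjusted p = 0.00329). The adult MV arrays read 133, 173, 139.9 and 143 and lay among the controls, with a change of 0.06 ± 0.13 (adjusted p = 0.754) and a 95% interval of -0.21 to 0.33. The effect of ventilation differed between the ages by 0.74 ± 0.19 (adjusted p = 0.0221), where 6.13% of all genes passed. That difference was lost without juvenile MV replicate 2, at 0.57 (adjusted p = 0.1), without juvenile control replicate 1, at 0.64 (0.0556), and with a term for the Xist pattern, at 0.55 (0.173).

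After LPS, ventilation left Tubb6 high. The juvenile LPS+MV arrays read 252, 340.5 and 412, and the adult LPS+MV arrays read 329, 314, 384 and 320.1. Against LPS the changes were 0.02 ± 0.14 (adjusted p = 0.955) in juveniles, with a 95% interval of -0.27 to 0.31, and 0.01 ± 0.13 (adjusted p = 0.967) in adults, with an interval of -0.26 to 0.28. Against MV, Tubb6 was higher by 1.19 ± 0.15 (adjusted p = 1.21e-06) in juveniles and 1.04 ± 0.13 (adjusted p = 7.09e-07) in adults, with no overlap at either age. Against control the rise was 0.51 ± 0.14 (adjusted p = 0.0063) and 1.10 ± 0.13 (adjusted p = 1.50e-07). The juvenile rise against control was lost without juvenile LPS+MV replicate 3, at 0.36 (adjusted p = 0.074). The juvenile LPS by MV interaction of 0.70 ± 0.20 (adjusted p = 0.107) did not pass, and it passed without juvenile LPS+MV replicate 1, at 0.87 (0.0279), or without juvenile control replicate 4, at 0.79 (0.0487).

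**Figure D2:**
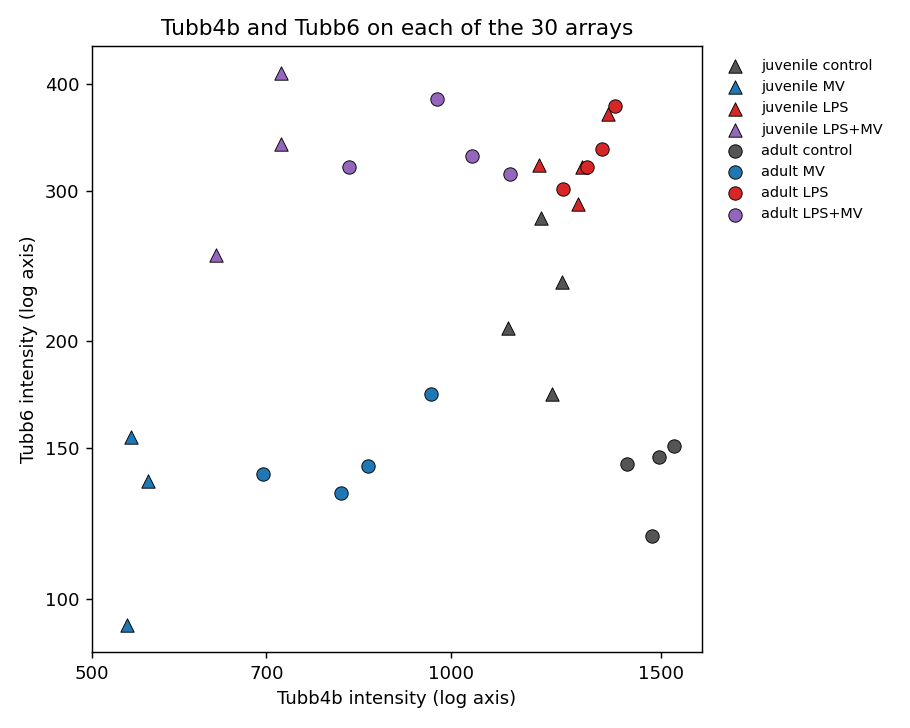
Intensity of Tubb4b (horizontal, log axis) and Tubb6 (vertical, log axis) on each of the 30 arrays, with triangles for juvenile and circles for adult lungs and colours for the treatment. The ventilated arrays lie to the left, at no more than 1120 units of Tubb4b, and the arrays with LPS lie at the top, at 252 units of Tubb6 or more.

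Over the 30 arrays, the 14 ventilated arrays read 535 to 1120 for Tubb4b and the 16 that were not read 1117 to 1539, so the ranges met at 1 adult LPS+MV array, replicate 2, and 1 juvenile control array, replicate 2. For Tubb6, the 15 arrays with LPS read 252 to 412 and the 15 without read 93.2 to 279, and the overlap came from juvenile LPS+MV replicate 1 and juvenile control replicate 1. These ranges pool both ages.

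Tubb5, the mouse counterpart of human TUBB, is a beta isotype made in most cells and abundant in dividing ones. It did not pass with MV or LPS alone at either age. The juvenile control arrays read 2436, 1925, 2282 and 1561, the MV arrays 1818, 1750.3 and 1409.7, and the LPS arrays 1876, 1667, 1823 and 1686. Juvenile control replicate 4 lay below each LPS array and 2 of the 3 MV arrays, so the groups overlapped. The changes were -0.29 ± 0.13 (adjusted p = 0.153) with MV and -0.20 ± 0.12 (adjusted p = 0.259) with LPS, and without that control array they were -0.41 (adjusted p = 0.0288) and -0.32 (0.0456). The juvenile LPS+MV arrays read 1648, 1790.3 and 1207. Their change against control was -0.40 ± 0.13 (adjusted p = 0.0195), but -0.23 (adjusted p = 0.208) without LPS+MV replicate 3. In adults the changes were -0.15 ± 0.12 (adjusted p = 0.348) with MV, -0.08 ± 0.12 (adjusted p = 0.658) with LPS and -0.01 ± 0.12 (adjusted p = 0.973) with both. A second Tubb5 probe set, 1455719_at, fell in adult MV lungs, with a change of -0.47 ± 0.12 (adjusted p = 0.0044), and in adult LPS+MV lungs, with a change of -0.31 ± 0.12 (adjusted p = 0.0396).

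Tubb2b, a beta isotype best known from neurons of the developing brain, fell with LPS in juvenile lungs. The juvenile control arrays read 87.3, 58.5, 103 and 69.2, and the LPS arrays read 42, 42.6, 36.3 and 37.9. The LPS values were close together and below all control values, with a change of -0.62 ± 0.15 (adjusted p = 0.003). The juvenile MV arrays read 114, 96.7 and 73.3 and overlapped the controls, with a change of 0.19 ± 0.16 (adjusted p = 0.52). The juvenile LPS+MV arrays read 62.5, 78.9 and 23.3, spread over a range wider than that of the LPS arrays. Their change of -0.40 ± 0.16 (adjusted p = 0.0589) against control did not pass, and that of -0.59 ± 0.17 (adjusted p = 0.0199) against MV passed but was -0.29 (adjusted p = 0.234) without replicate 3. Against LPS the change was 0.22 ± 0.16 (adjusted p = 0.415), and 0.51 (adjusted p = 0.0212) without replicate 3.

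In adults Tubb2b was dim. The adult control arrays read 34.5, 29.5, 24.8 and 22.4, and the adult LPS arrays read 42.9, 23.9, 33.2 and 36.9. These overlapped, and the lowest values were close to the array medians of 21.6 to 22.8. The adult changes were 0.14 ± 0.15 (adjusted p = 0.489) with LPS and 0.01 ± 0.15 (adjusted p = 0.978) with MV. The effect of LPS differed between the ages by 0.76 ± 0.21 (adjusted p = 0.0402), where 3.69% of all genes passed. It passed narrowly, and leaving out any of 12 of the 16 arrays that enter it ended the call, with adjusted p up to 0.088 without juvenile control replicate 3. The dividing cell markers, listed with the other lists here after earlier results of these data were known, moved beside it: 17 of 17 tested fell in juvenile LPS lungs, where 13.3% of all genes fell, and their summed intensity was 2238 to 8045 on juvenile control and 1890 to 2316 on juvenile LPS arrays. Their part in the result was not tested.

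Among the untreated controls, all 7 tested genes differed between the ages. Adult controls were higher for Tuba4a, by 0.45 ± 0.11 (adjusted p = 0.00302), and Tubb4b, by 0.30 ± 0.08 (adjusted p = 0.00611). They were lower for Tubb2b, with a log2 change of -0.89 ± 0.15 (adjusted p = 7.98e-05). For Tubb2a it was -0.61 ± 0.14 (adjusted p = 0.00145). For Tubb5 it was -0.59 ± 0.12 (adjusted p = 0.000539). These 3 genes and the next 2 were higher in the younger lungs. For Tubb6 the change was -0.56 ± 0.13 (adjusted p = 0.00217), and for Tuba1a it was -0.34 ± 0.12 (adjusted p = 0.0351). Of all genes tested, 15.1% were higher and 10.1% lower in adult controls. The 2 groups did not overlap for 6 of the 7 genes, and for Tuba1a adult control replicate 1 overlapped juvenile control replicate 4. The share of all genes without overlap was not counted for this comparison, so this count has nothing to be set against. Tuba1a lost the call without any of 6 single control arrays, with adjusted p up to 0.127. The second probe set of Tubb5, 1455719_at, changed by 0.05 ± 0.12 (adjusted p = 0.839).

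Markers of several cell types differed between the same control groups, where 10.1% of all genes were lower in adults and 15.1% higher. Of 17 dividing cell markers, 16 were lower in adults, and their summed intensity was 1734 to 2507 on adult and 2238 to 8045 on juvenile control arrays. Of 9 fibroblast and smooth muscle markers, 5 were lower and 1 higher in adults, with sums of 12970 to 14780 against 22570 to 27460. All 4 red cell markers were lower in adults, while 6 of 9 lymphocyte, 4 of 8 macrophage and monocyte, 3 of 8 alveolar type 1 and 3 of 6 club and secretory cell markers were higher and 0 lower. Their part in the age differences of the tubulin genes was not tested.

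The order of the 8 group means shows where the neighbours part. For Tubb4b it ran from adult control (1477 ± 56.4, SD, n = 4) through adult LPS, juvenile LPS, juvenile control, adult LPS+MV, adult MV and juvenile LPS+MV to juvenile MV (544 ± 11.9, SD, n = 3). Neighbours in this order shared part of their range, except adult control and adult LPS, and juvenile LPS+MV and juvenile MV. For Tubb6 the 4 LPS groups stood at 325 to 337 and overlapped one another. The step from juvenile LPS (325 ± 32.8, SD, n = 4) to juvenile control (223 ± 44.4, SD, n = 4) was the 1 gap without overlap. For Tubb2a the step from juvenile control (1551 ± 183, SD, n = 4) to juvenile LPS (1159 ± 89.7, SD, n = 4) was the 1 such gap. On the log2 scale the 8 group means spanned 1.39 for Tubb4b, 1.37 for Tubb2a, 1.22 for Tubb6, 1.07 for Tubb2b, 1.02 for Tuba4a, 0.75 for Tubb5 and 0.67 for Tuba1a, against pooled SDs of 0.11, 0.20, 0.19, 0.23, 0.16, 0.18 and 0.18. The median gene of all tested had a span of 0.42 and a pooled SD of 0.12.

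**Figure D3:**
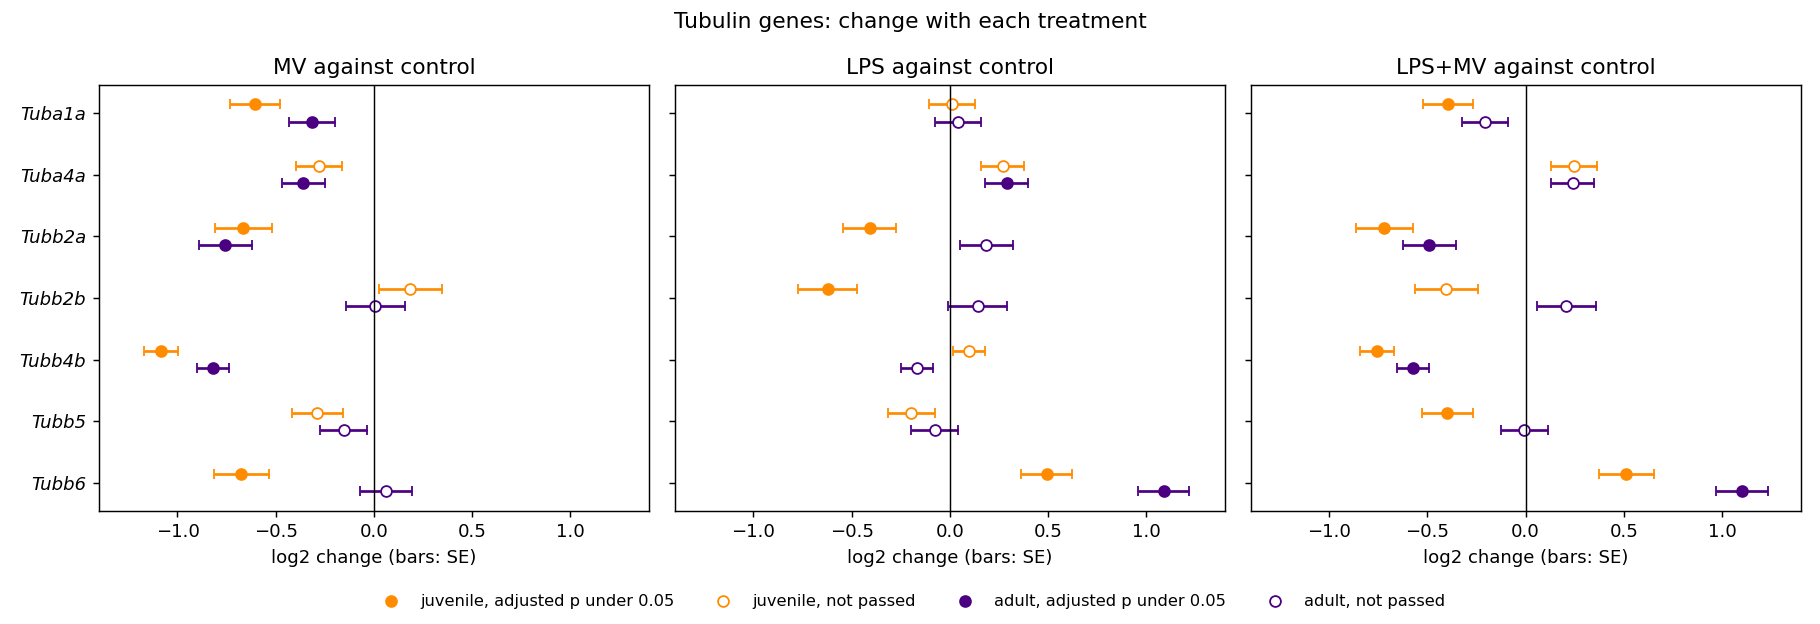
Log2 change against the control of the same age (horizontal) for each tested tubulin gene with MV, LPS and LPS+MV, with bars for the SE, orange for juvenile and purple for adult mice. Filled points had an adjusted p under 0.05, and Tubb4b lies left of 0 in both ventilated panels whereas Tubb6 lies right of 0 in both LPS panels.

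Counted by comparison, the tubulin genes stood against the rest of the array as follows. In juvenile LPS lungs, 1 of the 7 rose (Tubb6) and 2 fell (Tubb2a and Tubb2b), where 9.58% of all genes rose and 13.3% fell. In adult LPS lungs, 2 rose (Tubb6 and Tuba4a) and 0 fell, where 12.9% rose and 23.0% fell. In juvenile LPS+MV lungs against control, 1 rose (Tubb6) and 4 fell (Tubb4b, Tubb2a, Tubb5 and Tuba1a), where 10.8% rose and 20.5% fell. In adult LPS+MV lungs against control, 1 rose (Tubb6) and 2 fell (Tubb4b and Tubb2a), where 14.8% rose and 27.3% fell. Against LPS, 2 fell in juvenile LPS+MV lungs (Tubb4b and Tuba1a) and 0 rose, where 9.45% fell and 5.97% rose. In adult LPS+MV lungs 2 fell against LPS (Tubb4b and Tubb2a) and 0 rose, where 3.35% fell and 3.69% rose. With 7 genes, 1 gene is a large share, so a count of 1 or 2 lies near several of these percentages.

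The groups of a comparison did not overlap for 5 of the 7 genes in juvenile MV lungs, all lower, where 11.2% of all genes lay lower without overlap and 7.95% higher. In adult MV lungs 3 genes lay lower without overlap and 0 higher, where 22.9% and 7.61% did. In juvenile LPS lungs 2 lay lower and 1 higher, where 11.8% and 10.2% did. In adult LPS lungs 1 lay lower (Tubb4b) and 1 higher (Tubb6), where 21.6% and 13.0% did. Of the interactions, 1 of the 7 genes passed that of age with MV (Tubb6), where 6.13% of all genes did. For age with LPS 1 passed (Tubb2b), where 3.69% did, and for LPS with MV in adults 1 passed (Tubb4b), where 7.16% did. With limma, 0 passed that of age with LPS+MV, where 2.10% of all genes did. For LPS with MV in juveniles 0 passed, where 0.749% did. At an unadjusted p under 0.05, 3 genes (Tubb6, Tubb2b and Tubb5) were below it for age with LPS+MV and 1 (Tubb6) for LPS with MV in juveniles. The share of all genes under that unadjusted threshold was not counted, here or for the lists below. Such unadjusted counts thus have nothing to be set against.

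The remaining tubulin probe sets were read without assigning them to 1 gene. The probe set 1423846_x_at carries the symbols Tuba1b and Gm5620, of which Gm5620 is a pseudogene in RefSeq. It fell with MV, with changes of -0.51 ± 0.10 (adjusted p = 0.00148) in juveniles and -0.32 ± 0.09 (adjusted p = 0.00802) in adults. The probe sets 1416128_at and 1448232_x_at carry Tuba1c and Gm6682. They rose with LPS by 0.53 ± 0.09 (adjusted p = 4.72e-05) and 0.65 ± 0.10 (adjusted p = 1.71e-05) in juveniles. In adults they rose with LPS by 0.64 ± 0.09 (adjusted p = 2.56e-06) and 0.84 ± 0.10 (adjusted p = 2.72e-07). With MV, 1448232_x_at fell in juveniles, with a change of -0.34 ± 0.11 (adjusted p = 0.0418), and changed by 0.09 ± 0.10 (adjusted p = 0.53) in adults. Adjusted p-values in this paragraph and for other single probe sets come from limma over all 24825 kept probe sets. The neuronal beta tubulin Tubb3 read 8.12 to 12.8 on its 1 probe set, below the median of each of the 30 arrays. Of 8 neuron and neuroendocrine markers with a probe set, 3 were bright enough to test, and Snap25, Syt1, Chga, Nefl and Elavl4 were not.

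**Figure D4:**
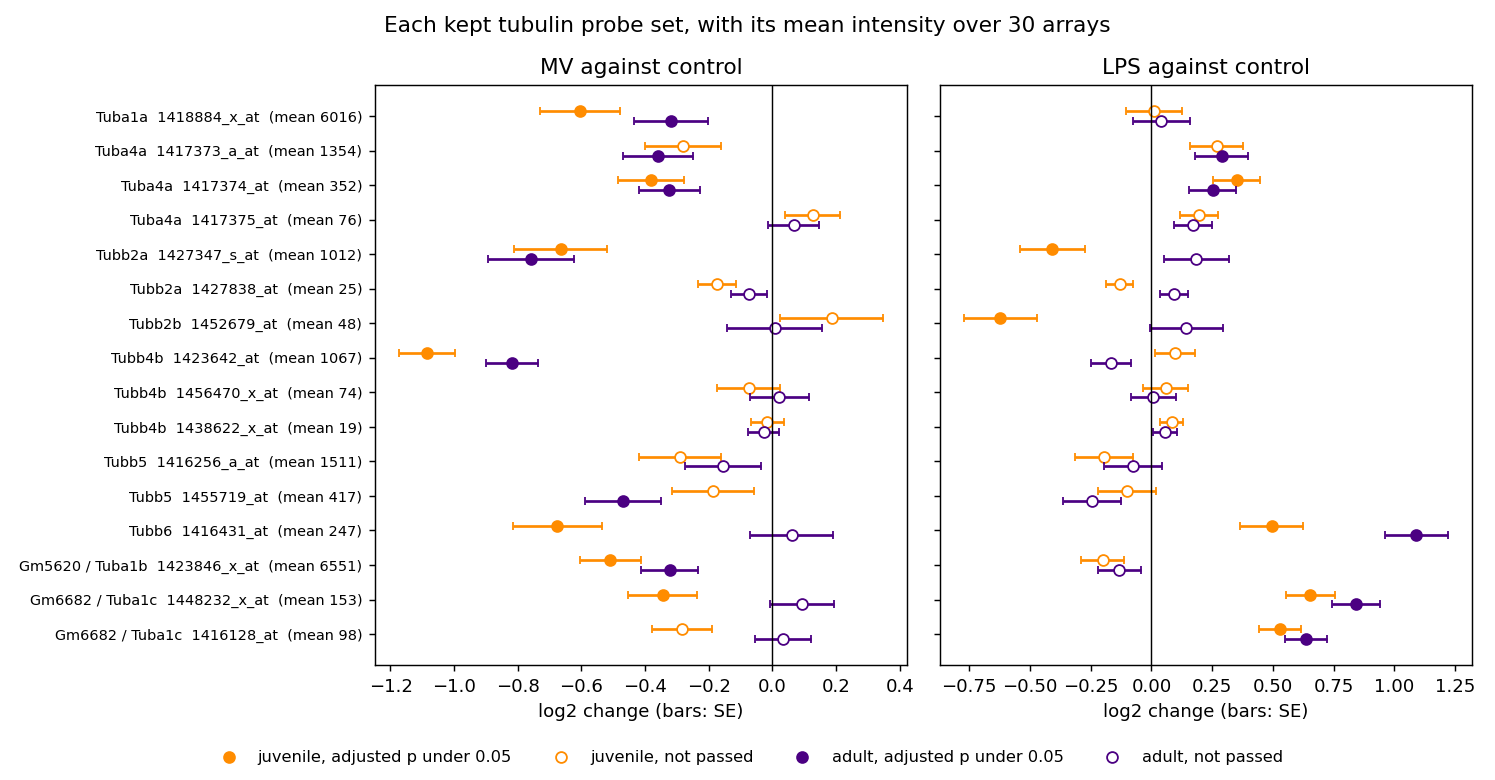
Log2 change with MV (left) and LPS (right) against control for each of the 16 kept tubulin probe sets, with bars for the SE, orange for juvenile and purple for adult mice, and the mean intensity over 30 arrays in the label. For Tubb4b the bright probe set moved with MV and the dim ones, at 15.2 to 24.6 and 60.3 to 107 units, lie at 0.

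Probe sets of a gene did not always move together. For Tubb4b, 1423642_at carried the values above, whereas 1456470_x_at (60.3 to 107 units) changed by -0.07 ± 0.10 and 0.02 ± 0.09 in juvenile and adult MV lungs. The dimmest kept one, 1438622_x_at (15.2 to 24.6 units), changed by -0.02 ± 0.05 and -0.03 ± 0.05. Both are of a class that may bind related transcripts, and neither passed. With the mean over its probe sets in place of the brightest, the Tubb4b change with MV was -0.39 in juveniles and -0.27 in adults, and it passed at both ages. Of the 18 tubulin probe sets with 1 symbol, 13 were kept, and of 5 with several symbols, 3 were.

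By a rule that takes the smallest root mean square difference between centred log2 group means over the 8 groups, the genes most like Tubb4b were Ackr2 (0.21), Psmb10 (0.23) and Pf4 (0.23). Those most like Tubb6 were Jpt2 (0.16), Steap2 (0.17) and Tfec (0.18). Those most like Tubb2a were Marchf2 (0.16), Arf2 (0.16) and Lxn (0.19). The genes most like Tubb2b were Plk4 (0.10), Zfp711 (0.10) and Pcsk5 (0.12), and those most like Tuba4a were Liph (0.077), Mocos (0.081) and Mvp (0.090). The closest gene to Tubb4b thus differed by about 0.21 on the log2 scale where its own means spanned 1.39.

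Of 6 other tubulins tested, 2 fell in juvenile MV lungs and 0 rose, where 6.45% of all genes fell. In adult MV lungs 4 fell and 0 rose, where 24.3% fell, with medians of -0.31 and -0.43. Tubg1, the gamma tubulin of the centrosome from which microtubules are nucleated, changed by -0.47 ± 0.10 (adjusted p = 0.00452) in juvenile and -0.46 ± 0.10 (adjusted p = 0.000709) in adult MV lungs. It also fell with LPS, with changes of -0.47 and -0.56 (log2, adjusted p = 0.000477 and 4.25e-05). Tuba8, an alpha isotype, fell with MV, with changes of -0.40 and -0.52 (adjusted p = 0.0368 and 0.00106). Tubb1, the beta isotype of platelets and megakaryocytes, changed by -1.03 ± 0.20 (adjusted p = 0.000322) in adult and -0.30 ± 0.21 (adjusted p = 0.398) in juvenile MV lungs, and was 1.02 ± 0.20 (adjusted p = 0.000372) higher in adult than in juvenile controls.

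Genes that fold tubulin were read next. Of the 20 subunits of the chaperonin CCT, prefoldins and tubulin cofactors, 6 rose and 2 fell in adult MV lungs, where 7.17% of all genes rose and 24.3% fell. In juvenile MV lungs 1 rose and 2 fell, where 4.41% rose and 6.45% fell. The difference between the ages was not tested for the list. The CCT subunit Cct4 changed by 0.47 ± 0.08 (adjusted p = 0.00018) in adult MV lungs, and the cofactor Tbcb by -0.42 ± 0.07 (adjusted p = 0.000788) in juvenile MV lungs. With LPS, 7 rose and 3 fell in adults (12.9% and 23.0% of all genes), and 1 rose and 3 fell in juveniles (9.58% and 13.3%). The median change with MV was -0.09 in juveniles and 0.09 in adults.

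Of 16 enzymes that modify tubulin and their partners, 3 fell and 0 rose with MV at each age, where 6.45% of all genes fell in juveniles and 24.3% in adults. Tpgs2, a subunit of the polyglutamylase complex, changed by -0.41 ± 0.08 (adjusted p = 0.00128) and -0.67 ± 0.07 (adjusted p = 2.55e-07) in juvenile and adult MV lungs. Ttll1, the catalytic subunit of that complex, changed by -0.10 ± 0.11 (adjusted p = 0.661) and -0.85 ± 0.10 (adjusted p = 2.16e-06). Of 29 genes of microtubule dynamics, 3 fell and 0 rose in juvenile MV lungs, and 6 fell and 1 rose in adult MV lungs, against the same shares. Katna1, the severing subunit of katanin, rose with LPS by 0.63 and 0.60 (adjusted p = 6.98e-05 and 9.35e-05). Of 5 genes of tubulin mRNA autoregulation, Ttc5 alone passed with MV in juveniles, at -0.29 ± 0.09 (adjusted p = 0.0334), and 0 of 5 passed with limma in adult MV lungs (2 at an unadjusted p under 0.05). Ttc5 itself changed by -0.01 ± 0.08 (adjusted p = 0.929) there.

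Of 18 genes of actin and its dynamics tested, 2 fell and 0 rose in juvenile MV lungs, where 6.45% of all genes fell. In adult MV lungs 4 fell and 3 rose, where 24.3% fell and 7.17% rose, and the medians were -0.03 and -0.10. Beta actin, Actb, changed by 0.12 ± 0.07 (adjusted p = 0.294) and -0.00 ± 0.06 (adjusted p = 0.989) at the 2 ages. Gamma actin, Actg1, changed by 0.08 ± 0.06 (adjusted p = 0.453) and 0.36 ± 0.05 (adjusted p = 3.22e-05).

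**Figure D5:**
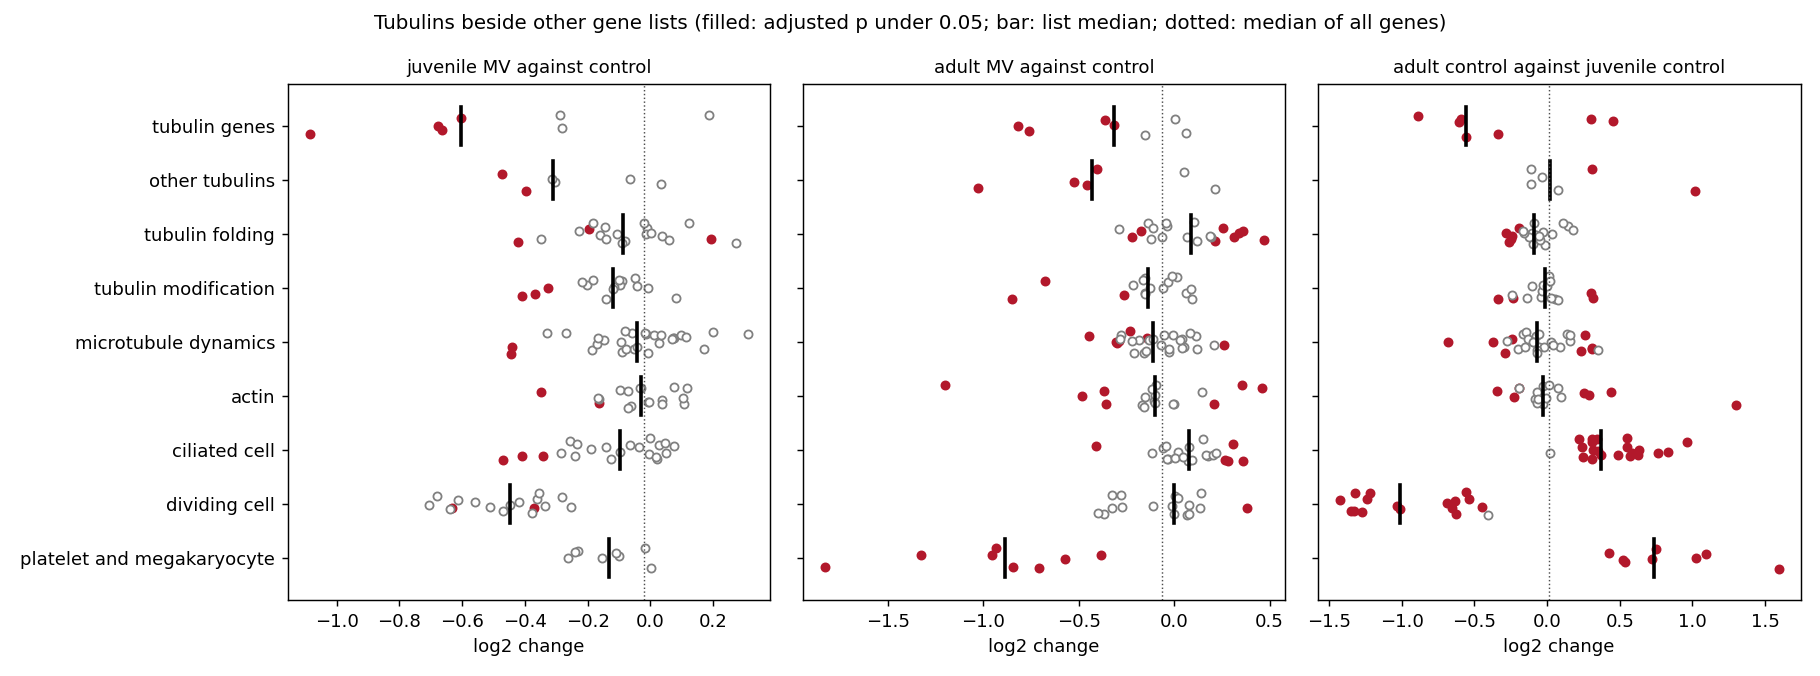
Log2 change (horizontal) of each tested gene of the tubulin genes and 8 other lists with MV in juveniles, with MV in adults, and between adult and juvenile controls, filled where the adjusted p was under 0.05, with the list median as a bar and the median of all genes as a dotted line. The tubulin genes have a median of -0.60 with MV in juveniles, the ciliated cell genes have 20 of 21 genes higher in adult controls, and the platelet genes have 8 of 8 lower with MV in adults.

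Because Tubb4b is a component of cilia, the motile ciliated cell markers were read beside it. In juvenile MV lungs 3 of 21 tested fell and 0 rose, where 6.45% of all genes fell, with a median of -0.10, and their summed intensity was 2036 to 2287 on MV arrays and 2538 to 3029 on control arrays. Tppp3, a protein that stabilises microtubules, was 1 of the 3, at -0.47 ± 0.13 (adjusted p = 0.0178). Foxj1, the master regulator of motile cilia, changed by 0.02 ± 0.15 (adjusted p = 0.955). In adult MV lungs 4 rose and 1 fell, where 7.17% and 24.3% of all genes did, with a median of 0.08, and the sum was 3839 to 4364 on MV arrays and 4104 to 4976 on control arrays. Between the controls, 20 of 21 were higher in adults, where 15.1% of all genes were, with a median of 0.37. In adult LPS lungs 7 of 21 fell and 0 rose, where 23.0% of all genes fell. The part of ciliated cells in the changes of Tubb4b was not tested.

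The platelet and megakaryocyte markers were read for the same purpose, since Pf4 was among the genes most like Tubb4b. Pf4 was found by its group means, adult MV among them, so its own place in the counts below is not independent of that choice. In adult MV lungs 8 of 8 tested fell, where 24.3% of all genes did, with a median of -0.89, and their summed intensity was 1228 to 1749 against 2255 to 5618 on control arrays. In juvenile MV lungs 0 of 8 passed with limma (0 at an unadjusted p under 0.05), and the sum was 873 to 1665 against 1311 to 1625. The 8 genes were higher in adult than in juvenile controls, with a median of 0.73, where 15.1% of all genes passed as higher. Other markers moved in adult MV lungs too. Of 8 alveolar type 1 markers 6 fell, with sums of 24340 to 27400 on MV and 32980 to 35070 on control arrays. All 4 red cell markers fell, with sums of 818 to 1138 against 1931 to 2502, and 3 of the 4 fell in juvenile MV lungs, where 6.45% of all genes did. Of 9 fibroblast and smooth muscle markers 4 fell and 1 rose, with sums of 9335 to 12330 against 12970 to 14780. The part of platelets and of these other cells in the changes of the tubulin genes was not tested.

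Xist was high on all 4 adult MV arrays and on 0 of 4 adult control arrays, so MV and the Xist pattern cannot be told apart within the adult MV comparison. It was also high on 3 of 4 adult and 2 of 3 juvenile LPS+MV arrays and on 0 LPS arrays. The comparisons of LPS+MV with LPS thus share this limit in part. Over all groups, with a term for the Xist pattern in the model, the fall of Tubb4b with MV passed at both ages, at -1.10 in juveniles and -0.98 in adults. With that term the adult MV fall of Tuba1a was lost, at -0.31 (adjusted p = 0.205). Its fall in juvenile LPS+MV against LPS was lost too, at -0.40 (0.0867). The juvenile rise of Tuba4a with LPS passed with the term, at 0.32 (0.021). The loss for Tubb6 between the ages is given above.

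Neutrophil markers moved with LPS, beside the rise of Tubb6. Of 11 tested, 5 rose in juvenile and 8 in adult LPS lungs, where 9.58% and 12.9% of all genes rose, and 0 fell. Their summed intensity was 8214 to 9802 on juvenile LPS arrays against 1293 to 4412 on juvenile controls, and 23340 to 38350 on adult LPS arrays against 3181 to 24830 on adult controls. Macrophage and monocyte markers rose for 3 and fell for 1 of 8 in juvenile LPS lungs, where 9.58% and 13.3% of all genes did. In adult LPS lungs 1 rose and 2 fell, where 12.9% and 23.0% of all genes did. In the controls, 8 of 11 neutrophil markers were higher in adults, where 15.1% of all genes were. Tubb6 was lower in adult than in juvenile controls. The part of these cells in the change of Tubb6 was not tested.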

How the data were processed

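Whole-lung RNA of 30 individual mice in 8 groups was measured on 1 array each, and groups were taken from the sample labels. The deposited values are probe set intensities on a linear scale, summarised and normalized between arrays by the authors. MAS5 is the only tool that the submitters' processing notes name, and the normalization is not given in the sources used here. Probe sets were named from the platform annotation, and of 45037 probe sets, 34945 carried 1 symbol, 932 several and 9160 none.

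Intensities were taken as log2(intensity + 32). A probe set was kept when it exceeded the median of its own array on at least 3 arrays, which left 24825. A gene was read from its kept probe set with 1 symbol and the highest mean, which left 13089 of 18193 genes. Models with 1 mean per group were fitted over all 30 arrays by the lmFit and eBayes functions of limma 3.58.1 (R 4.3.3), the prior variance following the mean intensity (22 residual and 4.87 prior degrees of freedom). Tests were two-sided, and p-values were adjusted by the Benjamini-Hochberg method within each of 16 comparisons, with a threshold of 0.05. The fit was tested on simulated data. Single probe sets were read from the same model over all kept probe sets.

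All 10 tubulin genes were named. From other lists, up to 3 passing members with the smallest p in a comparison were named, and other members with their values. The tubulin genes, the lists and the Xist term were chosen with earlier results of these data known. Promoter windows came from RefSeq (GRCm38.p6), and figures were drawn with Python 3.11.15 and matplotlib 3.10.9. Alternatives covered normalization, pseudocount, filter, choice of probe sets, variance model, array weights, the groups fitted, a replicate block, an Xist term and single arrays left out. The number of arrays per group limits the precision.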

Additional observations from a re-analysis of the deposited data

Results flagged for a closer look

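Tuba4a on juvenile LPS replicate 2 read 1363, while the other 3 arrays of the group read 1265, 1259 and 1269. The gap to the nearest of them, on the log2 scale, was 0.905 of the range of the group. It was the 1 array to stand apart among 42 sets of a gene and a group of 4 arrays, and chance alone gives about 1 in 20.

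Tubb2b responded differently to LPS at the 2 ages. The adult change was higher than the juvenile change by 0.76 (log2, adjusted p = 0.0402 with limma). For Tubb6 the adult change with MV was higher than the juvenile one by 0.74 (adjusted p = 0.0221). For Tubb4b in adults, the change with MV was less negative after LPS than without it by 0.41 (adjusted p = 0.0299). Each of these 3 differences was lost without some single array, and none was tested for its source.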

How the results depend on the processing

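Of 42 passing results of single tubulin genes, 21 passed under each of the alternatives run, and none changed sign. Among those 21 were Tubb4b with MV and with LPS+MV against control and Tubb6 with LPS, at both ages. Leaving out 4 arrays together and the comparisons of LPS+MV with MV were added after seeing the data.

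The number of tubulin genes that passed moved by more than 1.5 times as follows. With only the groups compared in the model it was 1 for juvenile MV, 2 for juvenile LPS+MV, 1 for juvenile LPS+MV against LPS, 2 for juvenile LPS+MV against MV, 0 for adult LPS by MV, 0 for age by MV and 3 for age by LPS. Without the 4 arrays it was 5 for juvenile LPS, 3 for juvenile LPS+MV, 0 for adult LPS by MV, 3 for age by LPS and 1 for age by LPS+MV. With array weights it was 1 for adult LPS, 2 for age by MV, 2 for age by LPS and 1 for age by LPS+MV. With no filter it was 1 for adult LPS and 0 for age by LPS. With the Xist term it was 1 for juvenile LPS+MV against LPS and 0 for age by MV. The mean over probe sets gave 0 for adult LPS by MV, and a pseudocount of 1 gave 0 for age by LPS.

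With single arrays left out, the number ran from 2 to 5 for juvenile LPS, 2 to 6 for juvenile LPS+MV, 2 to 4 for adult MV, 1 to 2 for adult LPS, 1 to 2 for juvenile LPS+MV against LPS and 2 to 4 against MV. It ran from 0 to 1 for LPS by MV in juveniles and in adults, 0 to 1 for age by MV, 0 to 2 for age by LPS and 0 to 2 for age by LPS+MV. Juvenile LPS gave 5 and age by LPS+MV gave 2 without juvenile control replicate 4, juvenile LPS+MV gave 2 without its replicate 3, and adult MV gave 2 without adult control replicate 4. For adult LPS any of 6 arrays gave 1, for adult LPS by MV any of 5 gave 0, and for age by LPS any of 12 gave 0. For juvenile LPS+MV, replicate 1 or replicate 3 of juvenile LPS gave 1 against LPS, and replicate 1 or replicate 2 of juvenile MV gave 2 against MV. The causes were not tested.

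Arrays of the same replicate number were slightly more alike than others. The mean correlation of deviations was 0.0458 for the same number and -0.0153 for others. Of 99 same-number pairs, 37 were above 0.1, and 11 of 30 arrays were closest to their own number. Whether replicate numbers pair the arrays was not tested, since no share for unpaired arrays was computed. With the replicate block, 4 tubulin genes passed with MV and 5 with LPS+MV in juveniles, and 7 between the controls, as without it. No count of tubulin genes moved. The number of all genes that passed was higher with the block in every comparison. It was 1474 against 1421 for juvenile MV, 140 against 98 for juvenile LPS by MV and 418 against 275 for age by LPS+MV.

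Over all genes, the fit over probe sets counts more features. Its calls were 2399, 4652 and 6805 for juvenile MV, LPS and LPS+MV, and 6846, 7827 and 9181 for adult, where the genes gave 1421, 2999, 4099, 4123, 4706 and 5512. For LPS+MV against LPS they were 3741 (juvenile) and 2075 (adult), where genes gave 2019 and 922, and against MV 3112 and 3686, where genes gave 1925 and 2271. They were 172 and 1482 for LPS by MV (genes 98 and 937), 5169 for age (3301), 1349 for age by MV (803) and 450 for age by LPS+MV (275). Array weights gave 2616 for juvenile MV, 3433 and 1776 against LPS, 4724 for juvenile LPS+MV against MV, 508 and 1604 for LPS by MV, and 2075, 943 and 1723 for age by MV, LPS and LPS+MV, where genes gave 483 for age by LPS. The groups compared alone gave 27 for juvenile MV, 2659 for juvenile LPS+MV, 1324 against LPS, 1045 against MV, 38 for juvenile LPS by MV, 410 for age by MV and 71 for age by LPS+MV. The Xist term gave 1712 for adult MV, 1132 and 246 against LPS and 189 for age by MV. Quantile normalization gave 157 for juvenile LPS by MV. Without the 4 arrays the counts were 1650, 1108 and 646 for age by MV, LPS and LPS+MV, and the replicate block gave 418 for the last.

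Dim genes limit what can be read, since the constant added to the intensities before the logarithm shrinks their log2 changes most. For Tubb2b the age by LPS difference was 0.76 with that constant. With a pseudocount of 1 it was 1.23 and did not pass with limma (adjusted p = 0.055). How far background is included in the intensities was not tested. Tubb2b in adults lay near the array medians, and Tubb3 was not tested.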
